A study of Homo sapiens with 8 samples.

Results

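Mitochondrial protein import, chaperones and proteases were followed through 38 genes, of 11963 genes measured. They are the genes of the array's probe table whose symbols start with TIMM or TOMM, together with a list of other import, chaperone and protease genes. The rule finds 43 symbols in the probe table, 39 of them on the list. Of these, 5 (TIMM23, TIMM23B, SPG7, TOMM6 and TOMM7) have probe sets shared with another gene symbol and were not analysed here. The 38 that were measured are 37 listed genes and TIMM10B. By role they were placed in 4 classes: 8 at the outer membrane, 13 at the inner membrane and in the space before it, 3 that process presequences, and 14 in quality control. The outer membrane class includes TOMM34, a cytosolic protein, by its name.

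The cells were A375P, a human melanoma cell line, made into stable lines with lentiviral short hairpin RNAs. Hairpin 65 and hairpin 66 target PGC1α, and shGFP and shScr are the control hairpins. All lines, controls included, carry a lentivirus and went through puromycin selection for 48 h, with RNA taken 48 h after selection. Each of the 4 hairpins has 2 arrays, so 4 arrays with PGC1α hairpins stand against 4 control arrays. Nothing in the labels ties the paired arrays to separate cultures. The p-values therefore reflect the spread among these samples alone, and part of it may be technical.

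Most mitochondrial proteins are encoded in the nucleus and made in the cytosol. They cross the outer membrane through the TOM channel, and then reach the matrix through the TIM23 channel or the inner membrane through the TIM22 complex. Matrix peptidases remove the targeting presequence, chaperones fold the protein, and proteases degrade what fails to fold or assemble. PPARGC1A encodes PGC1α, a coactivator that promotes mitochondrial biogenesis by working with nuclear receptors of the ERR family and with NRF1.

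Array medians ran from 137 to 142. The values had been made with RMA, which evens out signal between arrays, so these medians cannot show that the arrays were alike. PPARGC1A was 4.48-fold lower with the PGC1α hairpins (two-sided exact permutation p = 0.0286, the lowest value possible with 4 arrays in each arm). The permutations here treat the 8 arrays as separate units, though each of the 4 hairpins has 2 of them. Of 8 melanocyte lineage markers, 7 were measured and 5 lay above the median gene. The summed signal of the 7 was 18727 to 20235 in the controls and 14730 to 15958 with the PGC1α hairpins. MITF, PMEL, TYRP1 and S100B fell, while SOX10 rose, at 3652 in the controls and 4100 with the PGC1α hairpins. The 4 measured blood markers summed to 206 to 230 and 198 to 220, none of them above the median gene. Epithelial markers summed to 2859 to 3417 and 3450 to 3904. Among them KRT18 was higher, at 2619 in the controls and 3322 with the PGC1α hairpins, and ESRP1 lower, at 345 and 121. Fibroblast markers summed to 832 to 1333 and 930 to 1072. Of these, PDGFRB rose, at 76.9 in the controls and 110 with the PGC1α hairpins. For ACTB, the probe set at the 3′ end exceeded the one at the 5′ end on the log2 scale by 2.19 ± 0.18 on control arrays and by 2.53 ± 0.11 on PGC1α arrays (SD, n = 4 each), with no overlap (two-sided exact permutation p = 0.0286). The same difference for GAPDH was 0.17 in the controls and 0.18 with the PGC1α hairpins (exact permutation p = 0.571). The part of these marker and RNA quality shifts in the results was not tested, beyond a fit with the ACTB difference as a covariate. In that fit 3 members (AFG3L2, TIMM44 and TIMM17A) were lower and 0 higher, beside 2.01% and 2.41% of all genes. The median log2 change of the members was -0.17 in it and -0.14 without the covariate, while their median SE was 0.10 and 0.06. Because the ACTB difference did not overlap between the arms, this fit cannot tell it apart from the hairpins.

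The promoters were read first, since the partners of PGC1α bind known sequences. RefSeq windows of GRCh38.p14 matched 34 of the 38 genes (not TIMM8B, YME1L1, GRPEL1 and CLPP), and the 250 bases before each start were searched on both strands for 4 motifs. The ERR core motif AAGGTCA was in 1 of the 34, TRAP1, and in 3.43% of the 9563 array genes with a window. Its extended form TCAAGGTCA, which overlaps the core motif, was in 0 of the 34 and in 0.251% of the array genes. The NRF1 motif, GCGC then any base then TGCGC, was in 10 of the 34, and in 9.85% of the array genes. By outcome, the genes with it were 3 of the 15 called lower (DNAJA3, OXA1L and TOMM40), 6 of the 17 not called (CLPX, HSPD1, HSPE1, LONP1, PAM16 and TOMM20) and 1 of the 2 called higher (TOMM34). The heat shock factor motif GAANNTTC was in 1 of the 34, HSPD1, and in 6.35% of the array genes. Over all 35116 windows the shares were 3.44% for the ERR core motif, 0.319% for its extended form, 5.07% for the NRF1 motif and 5.78% for the heat shock factor motif. A match describes the letters of a window and shows no binding.

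The sequences below show the ERR match and NRF1 matches from genes that fell (OXA1L and DNAJA3), that were not called (LONP1 and HSPE1) and that rose (TOMM34), so that the motif can be seen under each outcome. Each runs 5′ to 3′ on the gene's strand, with the match in capitals. TRAP1 is chr16:3717670-3717766, minus strand. OXA1L is chr14:22766622-22766687, plus strand. DNAJA3 is chr16:4425736-4425835, plus strand, with 1 of its 3 matches in capitals. LONP1 is chr19:5720598-5720697, minus strand. HSPE1 is chr2:197500287-197500378, plus strand. TOMM34 is chr20:44960398-44960456, minus strand.
TRAP1: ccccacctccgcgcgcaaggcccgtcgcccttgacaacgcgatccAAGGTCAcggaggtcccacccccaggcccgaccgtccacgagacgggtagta
OXA1L: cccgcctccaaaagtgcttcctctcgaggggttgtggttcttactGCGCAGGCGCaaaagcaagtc
DNAJA3: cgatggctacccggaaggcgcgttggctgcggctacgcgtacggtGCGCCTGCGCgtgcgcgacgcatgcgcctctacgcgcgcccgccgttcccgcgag
LONP1: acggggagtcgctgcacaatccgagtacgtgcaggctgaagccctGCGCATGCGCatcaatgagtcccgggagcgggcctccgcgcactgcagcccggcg
HSPE1: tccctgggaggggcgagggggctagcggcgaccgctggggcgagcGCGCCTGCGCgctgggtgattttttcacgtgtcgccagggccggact
TOMM34: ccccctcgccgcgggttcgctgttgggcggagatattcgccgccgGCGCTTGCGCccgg
The HSPE1 match also lies in the window of HSPD1, read from the other strand, since these neighbours are transcribed away from each other.

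Across the whole set, 16 of 38 genes were lower with the PGC1α hairpins, 2 were higher and 20 did not pass (limma, adjusted p under 0.05 over all genes). Over all genes tested, 10.7% were lower and 11.6% higher. The genes that fell were TIMM17A, TIMM50 and TIMM44 of the TIM23 route, 3 of 6 small TIM chaperones, TIMM22, OXA1L, 2 of 3 presequence peptidases, 3 of 6 matrix chaperones, CLPP, AFG3L2 and TOMM40. At the outer membrane, TOMM40 alone among the measured TOM subunits and receptors passed as lower. The median log2 change of the set was -0.14 (-9.33%), and that of all genes was -0.00. A negative change was found for 31 of the 38 genes, and for 51.0% of all genes. In 20 members every PGC1α array lay below every control array, and in 2 above; the shares over all genes were 13.6% and 13.9%. The 4 outside the called genes with arms apart in the lower direction were TOMM22, HSPD1, PHB1 and PHB2. Without hairpin 66, 10 members were lower, beside 5.21% of all genes. The calls of MIPEP, TIMM22, TIMM13, PMPCA, TIMM50 and HSPA9 were lost. With the arrays of each hairpin averaged, which leaves 2 values in each arm, 5 were lower (AFG3L2, TIMM44, TIMM17A, OXA1L and CLPP) and 0 higher. Over all genes the shares in that fit were 3.01% and 4.33%. The arrays read bulk RNA, in which fewer cells of a type and less RNA per cell cannot be told apart.

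**Figure D1:**
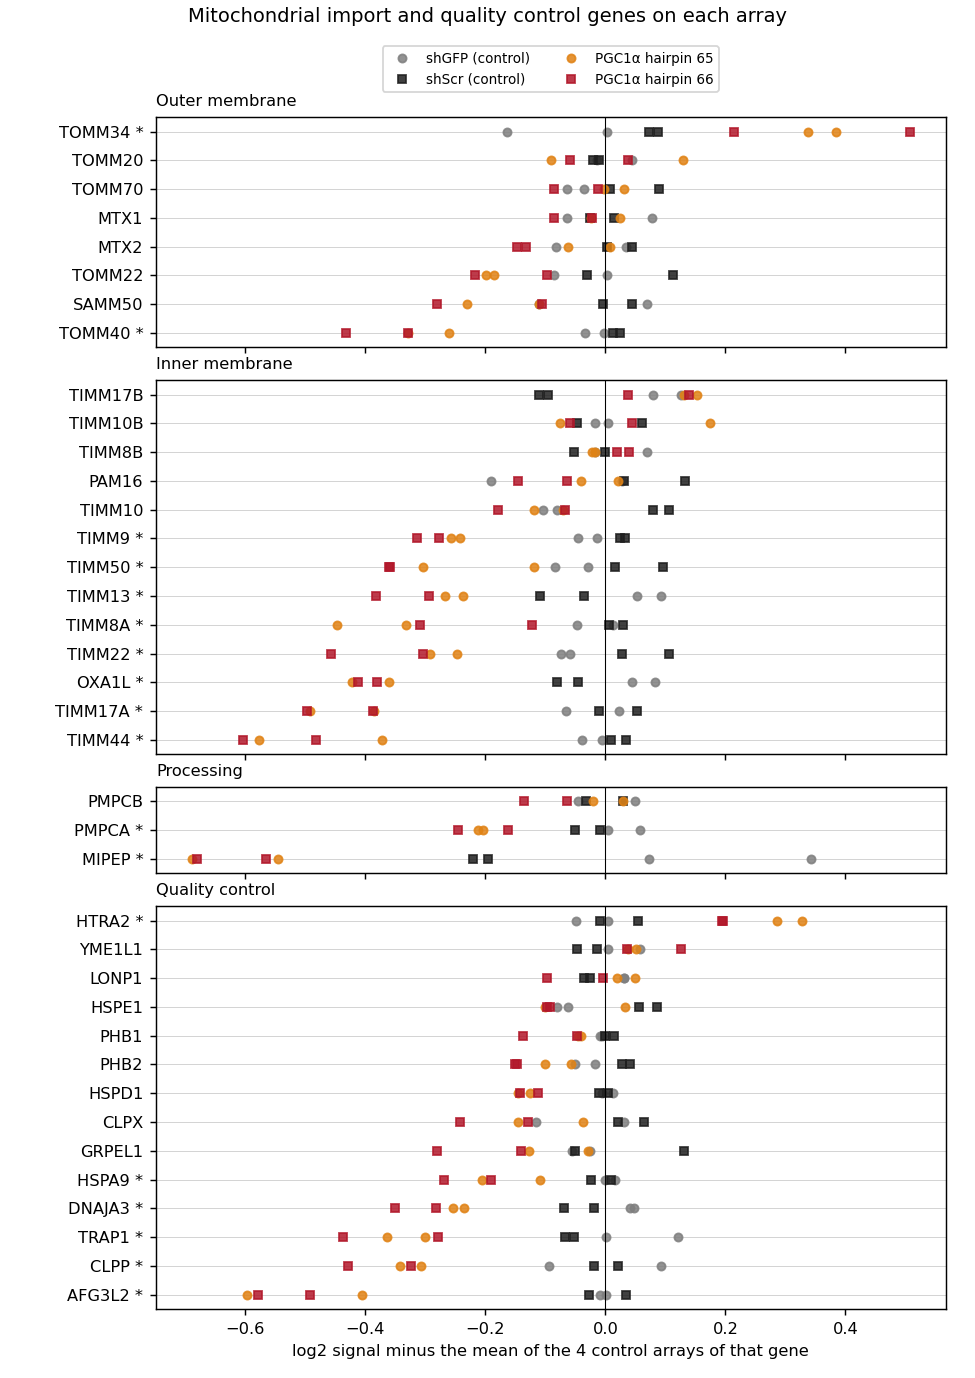
Log2 signal of each gene on each of the 8 arrays minus that gene's mean over the 4 control arrays (x axis), in 4 panels by role; each point is 1 array and an asterisk marks a gene past the test. The points of both PGC1α hairpins lie left of the control points for most inner membrane genes, and right of them for TOMM34 and HTRA2.

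At the inner membrane and in the space before it, 8 of 13 genes fell, none rose, and the median log2 change was -0.29. Without the shGFP arrays, 9 of the 13 fell, TIMM10 among them, and 1 rose, TIMM17B. The shares over all genes in that fit were 8.35% lower and 10.8% higher. TIMM44, which tethers the import motor to the TIM23 channel, had signals of 549 and 536 with shGFP, 564 and 554 with shScr, 369 and 425 with hairpin 65, and 394 and 362 with hairpin 66. All PGC1α arrays lay below all control arrays. TIMM44 fell by 0.51 on the log2 scale (SE 0.06), a level 1.42-fold lower (limma, adjusted p = 2.78e-04). PAM16, another part of the motor, had a log2 change of -0.06 (adjusted p = 0.651).

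TIMM17A is a channel subunit of the TIM23 complex. Its signals were 7156 and 6732 with shGFP, 7310 and 6996 with shScr, 5008 and 5390 with hairpin 65, and 5384 and 4994 with hairpin 66. The arms stood well apart, and TIMM17A fell by 0.44 (SE 0.05), 1.36-fold, with an adjusted p of 2.91e-04. Its paralog TIMM17B had signals of 672 and 694 with shGFP, 589 and 595 with shScr, 696 and 707 with hairpin 65, and 652 and 700 with hairpin 66. The TIMM17B arms overlap, because the shGFP arrays lie with the PGC1α arrays, and its log2 change was 0.11 (adjusted p = 0.271). TIMM17B passed as higher when the shGFP arrays were left out. TIMM50, the receptor that hands presequences to the channel, fell by 0.29 (SE 0.07, adjusted p = 0.0145) from 117 ± 6.23 to 96.2 ± 7.88 (SD, n = 4 each). Its probe set is dim enough to be removed when the 40% of genes with the lowest mean signal are left out, and its call was lost without shScr (adjusted p = 0.0774) and without hairpin 66 (adjusted p = 0.147), within a range of 0.00532 to 0.246 over its alternatives.

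TIMM22 forms the channel that inserts carrier proteins into the inner membrane. It gave 465 and 470 with shGFP, 499 and 526 with shScr, 412 and 399 with hairpin 65, and 356 and 396 with hairpin 66. Every PGC1α array was below the lowest control array, and TIMM22 fell by 0.33 (SE 0.06), 1.25-fold (adjusted p = 0.00554). OXA1L, the insertase that places mitochondrially made proteins into the inner membrane, gave 1600 and 1558 with shGFP, 1463 and 1428 with shScr, 1128 and 1176 with hairpin 65, and 1135 and 1160 with hairpin 66. The 4 PGC1α values span a narrower range than the controls and lie wholly below them. OXA1L fell by 0.39 (SE 0.05), 1.31-fold (adjusted p = 6.00e-04).

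The small TIM proteins are chaperones that carry hydrophobic precursors across the intermembrane space. Of 6 measured, TIMM9, TIMM13 and TIMM8A fell, and TIMM10, TIMM10B and TIMM8B did not pass. TIMM9, which forms a chaperone ring with TIMM10, had signals of 716 and 732 with shGFP, 756 and 752 with shScr, 625 and 618 with hairpin 65, and 610 and 594 with hairpin 66. The arms did not overlap, and TIMM9 fell by 0.27 (SE 0.05), 1.21-fold (adjusted p = 0.00236). For its partner TIMM10 the signals were 3255 and 3307 with shGFP, 3762 and 3693 with shScr, 3332 and 3222 with hairpin 65, and 3091 and 3338 with hairpin 66. The shGFP arrays of TIMM10 fall among the PGC1α arrays, and the log2 change was -0.11 (adjusted p = 0.271). TIMM10 passed as lower when the shGFP arrays were left out.

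TIMM13 and TIMM8A pair in the other small TIM ring. TIMM13 gave 5877 and 6041 with shGFP, 5253 and 5526 with shScr, 4710 and 4807 with hairpin 65, and 4346 and 4619 with hairpin 66. Its PGC1α arrays lay below the controls, of which shScr was the lower, and TIMM13 fell by 0.30 (SE 0.06), 1.23-fold (adjusted p = 0.00654). TIMM8A, the gene of the deafness-dystonia syndrome, fell by 0.30 (SE 0.07, adjusted p = 0.0112), from 351 ± 7.90 to 285 ± 27.1 (SD, n = 4 each). Its change was -0.14 with its probe sets averaged (adjusted p = 0.0829), and its call was also lost without shScr (adjusted p = 0.0511) and without hairpin 65 (adjusted p = 0.106), within a range of 0.00320 to 0.139 over its alternatives. TIMM8B and TIMM10B had log2 changes of 0.01 and 0.02, with arms that overlap.

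In the outer membrane class, 1 of 8 genes fell and 1 rose, beside 10.7% and 11.6% of all genes. The 1 that rose was TOMM34, a cytosolic protein, so none of those at the membrane rose. The median log2 change of the class was -0.06. That median was -0.10 with probe sets averaged or without hairpin 65, and -0.01 without hairpin 66. TOMM40, the pore of the TOM complex, had signals of 1260 and 1287 with shGFP, 1302 and 1312 with shScr, 1027 and 1077 with hairpin 65, and 956 and 1027 with hairpin 66. The control arrays were within a narrow range and all PGC1α arrays lay below it. TOMM40 fell by 0.34 (SE 0.05), 1.26-fold (adjusted p = 0.00131). The receptors did not pass: TOMM22 had a log2 change of -0.17 (adjusted p = 0.0560), TOMM70 of -0.02 and TOMM20 of 0.00. Of the machinery that assembles beta-barrel proteins, SAMM50 had a log2 change of -0.18 (adjusted p = 0.0668), MTX2 of -0.08 and MTX1 of -0.03.

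TOMM34 carries a TOMM name but is a cytosolic co-chaperone that binds precursors on their way to the mitochondrion. It gave 963 and 1082 with shGFP, 1136 and 1147 with shScr, 1364 and 1409 with hairpin 65, and 1253 and 1535 with hairpin 66. Each PGC1α array exceeded each control array, and TOMM34 rose by 0.36 (SE 0.08), 1.28-fold (adjusted p = 0.00892). The call was lost without the shGFP arrays (adjusted p = 0.0526) and without hairpin 65 (adjusted p = 0.0784), and over its alternatives the adjusted p ran from 0.00212 to 0.244.

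Of the 3 peptidases that process presequences, 2 fell and none rose, with a median log2 change of -0.21. MIPEP, which removes a further octapeptide from some precursors, had signals of 566 and 683 with shGFP, 470 and 462 with shScr, 369 and 334 with hairpin 65, and 336 and 364 with hairpin 66. MIPEP fell by 0.62 (SE 0.12), 1.54-fold (adjusted p = 0.00421). Its controls are themselves uneven: shGFP was 0.42 above shScr on the log2 scale, with an adjusted p of 0.0502. The lowest control array was still above the highest PGC1α array. The call was lost without hairpin 66 (adjusted p = 0.0506). Over its alternatives the adjusted p of MIPEP ran from 0.000316 to 0.154 and its log2 change from -0.83 without shScr to -0.41 without shGFP.

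The processing peptidase that cuts most presequences is a dimer of PMPCA and PMPCB. PMPCA fell by 0.21 (SE 0.05, adjusted p = 0.0118), from 1420 ± 44.1 to 1231 ± 29.3 (SD, n = 4 each), and its arms did not overlap. Its call was lost without shGFP (adjusted p = 0.0616), without hairpin 65 (adjusted p = 0.0861) and without hairpin 66 (adjusted p = 0.0689), within a range of 0.00359 to 0.253 over its alternatives. PMPCB had a log2 change of -0.05 (adjusted p = 0.599), with signals of 3729 ± 118 in the controls and 3610 ± 174 with the PGC1α hairpins (SD, n = 4 each). The difference between the changes of the subunits was not tested.

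In quality control, 5 of 14 genes fell and 1 rose, with a median log2 change of -0.14. That median was -0.22 without s_at and x_at probe sets, which leaves 8 of the 14 genes, and -0.09 without hairpin 66. Among 6 matrix chaperones, TRAP1, DNAJA3 and HSPA9 fell. TRAP1, the mitochondrial member of the HSP90 family and the gene with the ERR core motif, gave 2635 and 2863 with shGFP, 2539 and 2513 with shScr, 2047 and 2138 with hairpin 65, and 1946 and 2172 with hairpin 66. The PGC1α arrays all lay below the controls, and TRAP1 fell by 0.34 (SE 0.06), 1.27-fold (adjusted p = 0.00300). DNAJA3, a J-protein partner of HSPA9, gave 1652 and 1644 with shGFP, 1577 and 1523 with shScr, 1341 and 1357 with hairpin 65, and 1254 and 1315 with hairpin 66. Its arms did not overlap, and DNAJA3 fell by 0.28 (SE 0.05), 1.21-fold (adjusted p = 0.00367).

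HSPA9, the HSP70 of the matrix that also drives the import motor, fell by 0.19 (SE 0.05, adjusted p = 0.0198), from 7298 ± 88.6 to 6386 ± 291 (SD, n = 4 each). Its call was lost when any of 3 single arrays was left out: shGFP replicate 2, hairpin 65 replicate 1 or hairpin 66 replicate 2 (adjusted p of 0.0503 to 0.0536, against 0.00192 to 0.203 over all its alternatives). Its nucleotide exchange factor GRPEL1 had a log2 change of -0.14 (adjusted p = 0.173). HSPD1, the chaperonin that folds matrix proteins, had signals of 18800 and 19041 with shGFP, 18742 and 18931 with shScr, 17069 and 17299 with hairpin 65, and 17464 and 17099 with hairpin 66. These arms do not overlap, but the log2 change of -0.13 did not pass (adjusted p = 0.0519). The co-chaperonin HSPE1, which shares its promoter with HSPD1, had a log2 change of -0.06 (adjusted p = 0.509).

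The matrix proteases differed in whether they passed. CLPP, the peptidase of the ClpXP protease, gave 1900 and 2163 with shGFP, 2003 and 2058 with shScr, 1600 and 1640 with hairpin 65, and 1508 and 1620 with hairpin 66. The arms were apart, and CLPP fell by 0.35 (SE 0.06), 1.28-fold (adjusted p = 0.00177). CLPX, the unfoldase that feeds CLPP, had a log2 change of -0.14 (adjusted p = 0.150). LONP1, the protease that degrades oxidised matrix proteins, gave 1722 and 1722 with shGFP, 1645 and 1655 with shScr, 1708 and 1744 with hairpin 65, and 1576 and 1681 with hairpin 66. Its arms overlap, and its log2 change was -0.01 (SE 0.05, adjusted p = 0.942).

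AFG3L2, a subunit of the m-AAA protease of the inner membrane, had the smallest p of the 38 genes. Its signals were 968 and 976 with shGFP, 956 and 999 with shScr, 644 and 736 with hairpin 65, and 652 and 693 with hairpin 66. The controls lay close together and far above the PGC1α arrays, and AFG3L2 fell by 0.52 (SE 0.06), 1.43-fold (adjusted p = 1.55e-04). YME1L1, the protease of the same family that faces the intermembrane space, had a log2 change of 0.06 (adjusted p = 0.417). HTRA2, a serine protease of the intermembrane space, gave 1015 and 977 with shGFP, 1005 and 1050 with shScr, 1233 and 1269 with hairpin 65, and 1158 and 1158 with hairpin 66. Every PGC1α array was above every control array, and HTRA2 rose by 0.25 (SE 0.05), 1.19-fold (adjusted p = 0.00716). Without hairpin 65 the HTRA2 call was lost (adjusted p = 0.0832, against 0.00222 to 0.163 over its alternatives). The prohibitins PHB1 and PHB2, which form a ring scaffold around the m-AAA protease, had log2 changes of -0.07 and -0.11 and did not pass.

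**Figure D2:**
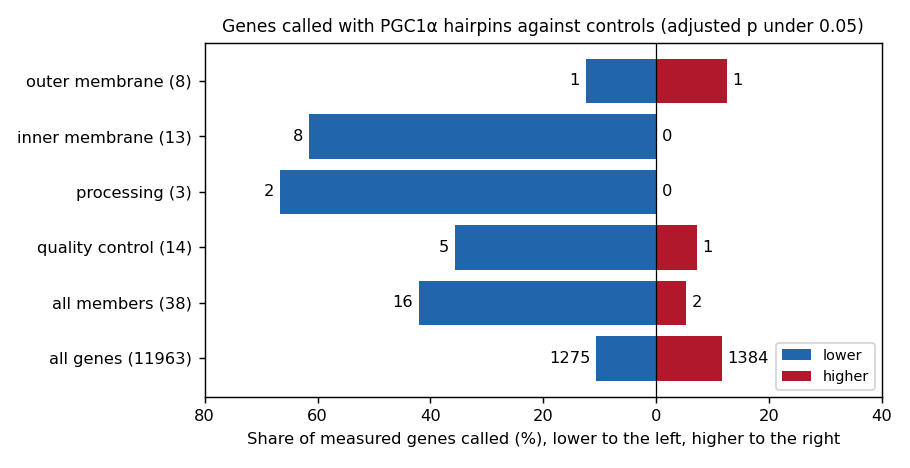
Share of measured genes (x axis, %) called lower (left) and higher (right) with the PGC1α hairpins (limma, adjusted p under 0.05) in each of the 4 role classes, all 38 members and all 11963 genes; counts stand at the bars. The inner membrane class holds 8 of the 16 genes that fell, and the outer membrane class 1.

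The classes were compared as a description, with no test between them. The inner membrane class had the largest share of genes that fell among classes of 8 or more genes, 8 of 13, against 5 of 14 in quality control and 1 of 8 at the outer membrane. With probe sets averaged these counts were closer: 7 of 13, 7 of 14 (with PHB1 and HSPD1) and 3 of 8 (with TOMM22 and SAMM50). Array by array, the median deviation of the inner membrane genes from their control mean was -0.25 and -0.24 with hairpin 65, and -0.28 and -0.30 with hairpin 66. The outer membrane median was -0.08 and -0.01 with hairpin 65, and -0.11 and -0.09 with hairpin 66. The quality control median was -0.14 and -0.05 with hairpin 65, and -0.14 and -0.15 with hairpin 66. On the control arrays these medians lay between -0.06 and 0.03 in those 3 classes.

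Each PGC1α hairpin was then set against the controls, which both comparisons share. With hairpin 65, 14 members were lower and 2 higher, beside 10.4% and 13.0% of all genes, and the median log2 change was -0.11. With hairpin 66, 15 members were lower and 2 higher, beside 10.9% and 11.2% of all genes, and the median was -0.17. Past the test with each of the hairpins were 13 members in the lower direction, beside 8.09% of all genes. AFG3L2 fell by 0.50 with hairpin 65 and by 0.54 with hairpin 66. For TIMM44 these values were -0.47 and -0.54, and for MIPEP -0.62 and -0.62. The 3 members that fell in the fit of both hairpins but passed with 1 of them were TIMM8A, TIMM50 and HSPA9. TIMM8A had an adjusted p of 0.00644 with hairpin 65 and 0.0653 with hairpin 66. TIMM50 had 0.0576 and 0.00741, and HSPA9 had 0.0789 and 0.0218. In hairpin 65 against hairpin 66, 0 of 38 members passed with limma (smallest adjusted p = 0.727), beside 0% of all genes. An unadjusted p under 0.05 was found for 0 members, beside 849 of 11963 genes. This does not show that the hairpins act alike.

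With 1 array of hairpin 65 left out, its comparison rests on the other array. That array is then assumed to vary like those of the other groups. Shares over all genes were not taken for those fits, so their counts of members are not read as a result.

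**Figure D3:**
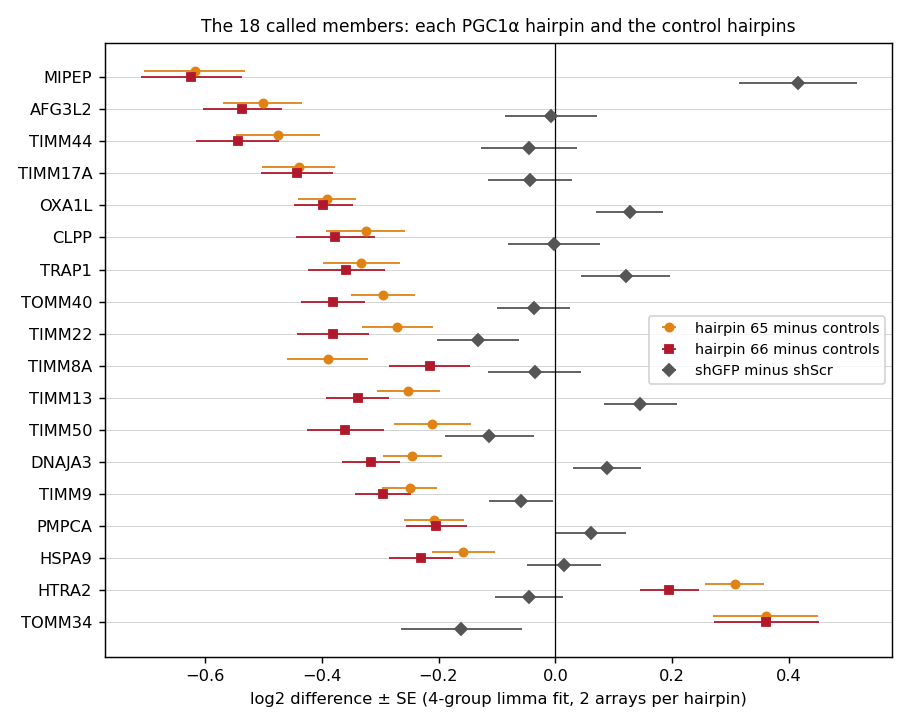
Log2 difference ± SE of the 18 called genes for hairpin 65 minus controls, hairpin 66 minus controls, and shGFP minus shScr, from the limma fit of 4 groups with 2 arrays each. The PGC1α hairpins lie on the same side of 0 for each gene, and the shGFP minus shScr point of MIPEP, at 0.42, stands farthest from 0.

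Between the control hairpins, 0 of 38 members passed with limma, beside 7.85% of all genes. At an unadjusted p under 0.05 there were 3 (MIPEP, TIMM10 and TIMM17B), beside 2730 of 11963 genes. Under other settings the count of members passing after adjustment reached 5 (MIPEP, TIMM10, TIMM17B, TIMM13 and HSPE1), with a trend and robust variance.

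Of the 38 genes, 13 have more than 1 probe set, and these do not always give the same call. When each of the 65 probe sets was tested singly, 26 were lower and 2 higher; over all probe sets 9.23% were lower and 10.3% higher. HSPD1, PHB1, SAMM50 and TOMM70 did not pass on the probe set of highest signal, but had another that was lower. For PHB1 the other probe set had a log2 change of -0.28 (adjusted p = 0.00525). For SAMM50 it was -0.27 (adjusted p = 0.00981), for HSPD1 -0.23 (adjusted p = 0.00834) and for TOMM70 -0.22 (adjusted p = 0.0338). MIPEP and TIMM44 were lower on both probe sets and HSPA9 on all 3. TIMM17A was lower on 3 of 4, the exception having a mean signal of 10.5. HTRA2 rose on the probe set used and had 0.10 on its other (adjusted p = 0.327). The probe sets differed in sign for TIMM17A, TIMM8A, TOMM20 and YME1L1. TIMM8A's other probe set had a mean signal of 25.9 and a log2 change of 0.03, and 9 of the 13 for YME1L1 had mean signals under 32.

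**Figure D4:**
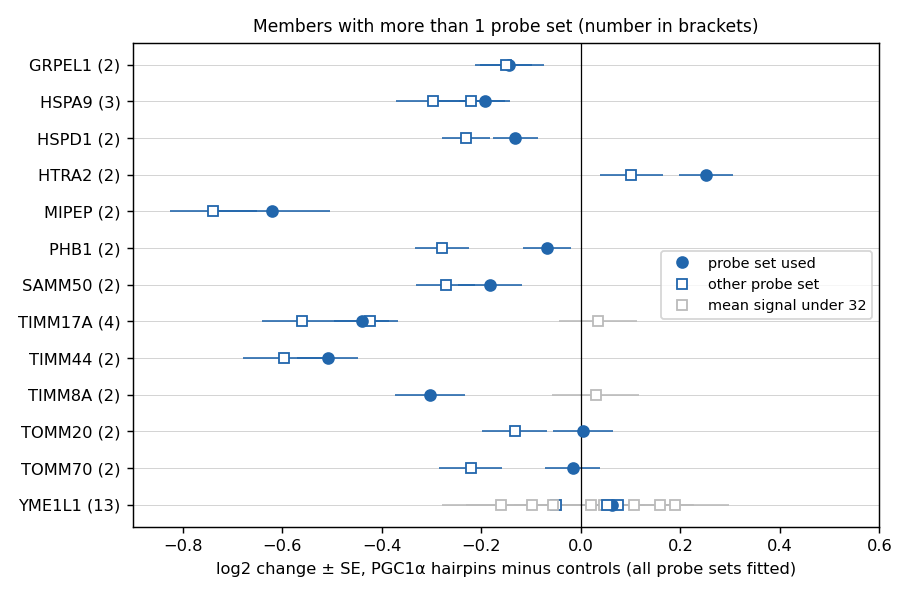
Log2 change ± SE with the PGC1α hairpins for every probe set of the 13 genes with more than 1; the filled circle is the probe set used, squares are the others, and grey squares have a mean signal under 32. For PHB1, HSPD1, SAMM50 and TOMM70 the square lies left of the circle.

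A list of 31 related genes (other motor and import factors, peptidases, proteases and cytosolic chaperones) was read beside the set, and 17 were measured. Of these, 4 fell and 0 rose, beside 10.7% and 11.6% of all genes. Their median log2 change was -0.07, and that of all genes was -0.00. PARL, the rhomboid protease of the inner membrane, gave 2140 and 2083 with shGFP, 2010 and 1923 with shScr, 1565 and 1575 with hairpin 65, and 1388 and 1614 with hairpin 66. Its arms did not overlap, and PARL fell by 0.41 (adjusted p = 0.00135). The PARL call was lost with the ACTB covariate (adjusted p = 0.149). DNAJC11, an outer membrane J-protein linked to cristae organisation, gave 909 and 963 with shGFP, 820 and 782 with shScr, 659 and 649 with hairpin 65, and 647 and 733 with hairpin 66. The arms were apart, and DNAJC11 fell by 0.37 (adjusted p = 0.00717). The DNAJC11 call was lost without hairpin 65 (adjusted p = 0.0875), within a range of 0.00192 to 0.257 over its alternatives. XPNPEP3, an aminopeptidase that trims presequence-cleaved proteins, gave 68.0 and 66.5 with shGFP, 60.0 and 65.8 with shScr, 57.2 and 51.5 with hairpin 65, and 57.9 and 55.3 with hairpin 66. Its PGC1α arrays lay below the controls at a low signal, and XPNPEP3 fell by 0.23 (adjusted p = 0.0216). Its call was lost when shGFP replicate 1 or 2, hairpin 65 replicate 2 or hairpin 66 replicate 2 was left out, and the adjusted p ran from 0.0134 to 0.512 over its alternatives. MTCH1, an outer membrane protein, fell by 0.16 (adjusted p = 0.0400). It passed with neither hairpin alone (adjusted p = 0.112 with hairpin 65 and 0.0612 with hairpin 66). The cytosolic chaperones HSP90AA1, HSP90AB1 and DNAJA1 had log2 changes of -0.10, 0.00 and -0.12 and did not pass.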

How the data were processed

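RNA from 8 samples was hybridised to 1-colour Affymetrix arrays. For 22277 probe sets the authors deposited linear intensity values, made with RMA (per the submitters' processing notes); the log2 was taken before every test. Array image files were not used here. Of the probe sets, 19070 had 1 gene symbol, 1043 several and 2164 none, with 62 array control probe sets; each gene was read from its probe set of highest mean log2 signal.

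The 2 arms of 4 arrays were compared with limma 3.58.1 in R 4.3.3 (6 residual degrees of freedom). Each hairpin, and the hairpins within an arm, were compared in a 4-group fit (4 degrees of freedom). Adjustment was by Benjamini and Hochberg across 11963 genes, with a threshold of 0.05; "rose" and "fell" mean past it. PPARGC1A and the ACTB and GAPDH differences used exact permutations. The fits were run on simulated data with the spread taken within hairpins and no difference between the hairpins of an arm. That simulation cannot show how often the fit of 2 arms errs where hairpins of an arm differ.

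The members and lists were chosen with earlier results of these data known. Array-by-array values are given for the 12 members with the smallest p, members called higher, and the 3 related genes with the smallest p; TIMM17B, TIMM10, HSPD1 and LONP1 were added after their values were seen. Genes that share probe sets with another symbol were left out. The number of arrays limits the precision. Alternatives were probe set summary, signal filter, quantile and cyclic loess normalization, trend and robust variance, probe set suffix, replicate block, averaged arrays, hairpin as a random block, the ACTB difference as a covariate, and hairpins or arrays left out.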

Additional observations from a re-analysis of the deposited data

Results flagged for a closer look

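Within arms of 4 arrays, 5 of the 78 groups examined held 1 array far from the other 3, by Dixon's criterion; chance flags about 1 in 20 groups, 3.9 here. GRPEL1 read 2794 on shScr replicate 2, with the other controls at 2456 to 2508. HSPE1 read 12102 on hairpin 65 replicate 2, with the other PGC1α arrays at 11039 to 11092. PHB1 read 5097 on hairpin 66 replicate 1, with the others at 5426 to 5450. TOMM20 read 9909 on shGFP replicate 2, with the other controls at 9468 to 9536. YME1L1 read 3108 on hairpin 66 replicate 1, with the others at 2921 to 2949. None of these 5 genes passed the test between arms.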

How the results depend on the processing

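The 16 members lower became 5 with the arrays of each hairpin averaged (AFG3L2, TIMM44, TIMM17A, OXA1L and CLPP), 3 with the ACTB covariate and 10 without hairpin 66; leaving out 1 array gave 15 to 17. The other alternatives gave 12 to 20. Over all genes the share lower in these ran from 5.64% (without hairpin 65, 14 members lower) to 18.9% (40% filter, 18 of 37 members). Leaving out 1 array, it was 8.24% to 9.99%, so the counts do not compare directly. For the fits of single hairpins and of the controls, no shares over all genes were taken under the alternatives. The 2 members higher became 1 when s_at and x_at probe sets were left out (24 members measured, HTRA2 not among them, 12 lower), and 0 averaged, with the ACTB covariate or without hairpin 65. Without shGFP they stayed 2 in number, with TOMM34 lost and TIMM17B gained. Members lower with hairpin 65 became 6 with the ACTB covariate and 7 to 14 leaving out 1 array; with hairpin 66 they became 5 with that covariate, 24 with a trend and robust variance and 12 to 15 leaving out 1 array. Members called between the controls became 1 (MIPEP) with averaged probe sets, quantile or loess normalization, 3 with the 40% filter and 5 with a trend and robust variance, and 0 to 1 leaving out 1 array (1 without shGFP replicate 1). The median of -0.14 became -0.19 with those probe sets left out, -0.18 without shGFP and -0.17 without hairpin 65, and -0.17 to -0.13 leaving out 1 array. PPARGC1A changed by -2.28 without hairpin 65, -2.05 without hairpin 66, and -2.23 to -2.12 leaving out 1 array. The ACTB difference was 0.27 to 0.40 and that of GAPDH -0.00 to 0.02 leaving out 1 array. With the replicate block, 17 members were lower and 2 higher; deviations of same-numbered arrays correlated at -0.11 to 0.04, so the numbers were not taken as pairs. Over 475 values of 22 genes under 22 alternatives, 63 lost the call and 0 reversed. The arms of all 22 genes were apart, so leaving out or averaging arrays could not have reversed a sign. The cause of the lost calls was not tested. The number of arrays limits small changes.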
